A study of Sus scrofa with 12 samples.

Results

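Leptin (LEP) and lipoprotein lipase (LPL) were examined in Dingyuan pigs, an indigenous Chinese breed, in the subcutaneous fat of the back and in longissimus dorsi (LD) muscle. Their rows were taken by the Ensembl identifiers that the gene tables of the study pair with these symbols, so the genes described are 2 of the 31903 identifiers in the expression table. LEP is ENSSSCG00000040464 and LPL is ENSSSCG00000040631. In the RefSeq annotation of Sscrofa11.1, LEP spans chromosome 18 from 20106867 to 20124071 with 6 transcripts, and LPL spans chromosome 14 from 4104761 to 4134964 with 2 transcripts. Expression values are summed over the transcripts of a gene, and isoforms were not separated here.

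The pigs were unmated sows, labelled as 300 days old, and no group received a treatment. Back subcutaneous fat was sequenced from pigs with low backfat thickness (LBF) and high backfat thickness (HBF), and LD muscle from pigs with low intramuscular fat (LIMF) and high intramuscular fat (HIMF). There were 3 libraries per group and 12 in all, and each library was treated as a separate pig. The study collected both tissues from its pigs, and the library codes of the fat and of the muscle share their numbers. Whether a shared code marks the same pig is not stated. The group means of weight and backfat that the study gives differ between groups with shared codes, so not all shared codes can mark the same pig. The p-values between the tissues rest on an independence that was not shown. The deposited values are FPKM, which corrects the fragments assigned to a gene for transcript length and for library size, so levels of LEP and LPL can be set side by side.

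Leptin is a hormone secreted by adipocytes. It reports the size of the fat store to the brain through the leptin receptor, which signals through the kinase JAK2 and the transcription factor STAT3. LPL is an enzyme made by adipocytes and muscle fibres. It is carried across the capillary wall by GPIHBP1 and releases fatty acids there from the triglyceride of chylomicrons and very low density lipoproteins. In fat these fatty acids are mostly stored, and in muscle they are mostly burned or added to intramuscular lipid. The comparisons asked how the transcripts of a hormone that reports fat and of an enzyme that supplies it differed between pigs with more and less fat, in both tissues.

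LEP was higher and LPL was lower in every library of the fatter group than in every library of the leaner group, in the fat and in the muscle. The mean of LEP was 1.77 times as high in HBF as in LBF and 6.97 times as high in HIMF as in LIMF. The latter was lowered by LIMF replicate 1, without which it was 10.5 times, and it was 5.63 times without LIMF replicate 3. The mean of LPL was 1.90 times as high in LBF as in HBF and 2.30 times as high in LIMF as in HIMF. None of these differences passed the limits for a called gene, an adjusted p under 0.01 together with a log2 difference of 1 or more in either direction.

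In LBF the 3 libraries held LEP at 98.5, 33.9 and 53.5 FPKM, a mean of 62.0 ± 33.1 (SD, n = 3). In HBF they held it at 114, 109 and 106 FPKM, a mean of 110 ± 4.18 (SD, n = 3). The HBF libraries lay close together with a coefficient of variation of 3.80%, against 53.5% for the LBF libraries, and LBF replicate 1 lay just under the lowest HBF library. LEP stood between rank 435 and rank 1450 among the genes of a fat library.

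LPL was among the most abundant transcripts of the fat. In LBF the libraries held it at 1124, 977 and 842 FPKM, a mean of 981 ± 141 (SD, n = 3), and in HBF at 368, 588 and 590 FPKM, a mean of 515 ± 128 (SD, n = 3). No HBF library reached the lowest LBF library. LPL alone took 0.200% to 0.224% of all FPKM in the LBF libraries and 0.0783% to 0.122% in the HBF libraries, at ranks 43 to 61 and 88 to 145.

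In muscle LEP was near the lower limit of the measurement. The libraries held it at 0.0992, 0.0478 and 0.0310 FPKM in LIMF, a mean of 0.0593 ± 0.0355 (SD, n = 3), and at 0.453, 0.440 and 0.348 FPKM in HIMF, a mean of 0.414 ± 0.0573 (SD, n = 3). All HIMF libraries lay above 0.05 FPKM, the limit the study uses for expression, and 1 of the 3 LIMF libraries did. The number of reads behind values this low was not used here, so their counting error is not known.

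LPL in muscle was at 85.1, 76.3 and 136 FPKM in LIMF, a mean of 98.99 ± 32.0 (SD, n = 3). In HIMF it was at 40.4, 21.6 and 67.0 FPKM, a mean of 43.0 ± 22.8 (SD, n = 3). HIMF replicate 3 came nearest to the LIMF libraries and HIMF replicate 2 lay farthest below them.

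**Figure D1:**
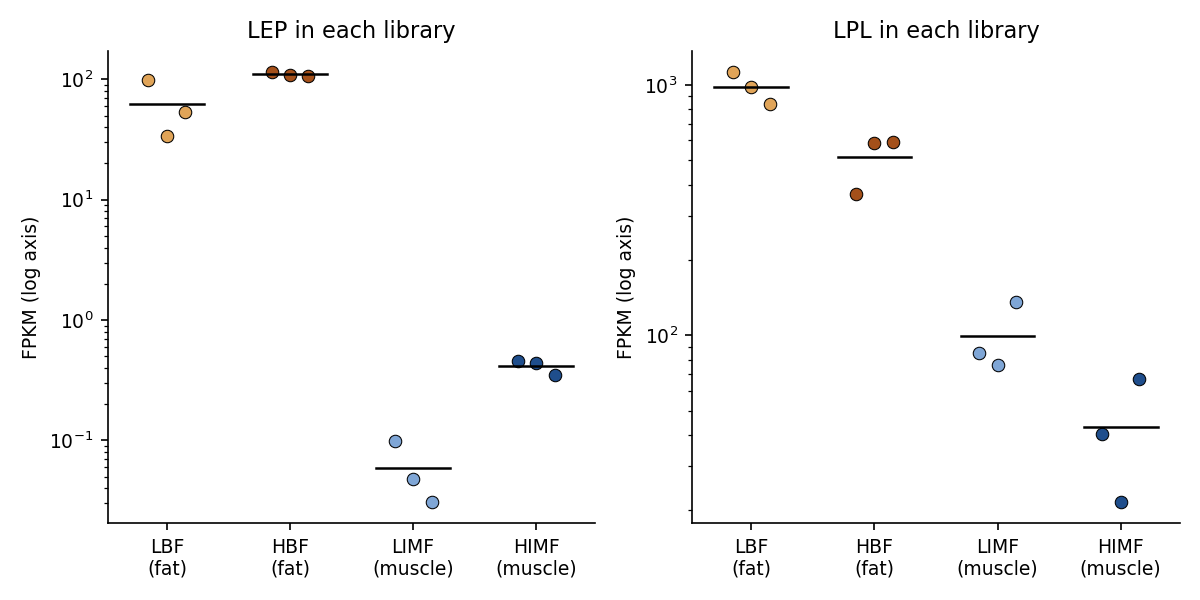
FPKM of LEP (left) and LPL (right) on log axes, with 1 point per library, ordered by replicate number within LBF, HBF, LIMF and HIMF, and a line at each group mean. Within each tissue the points of the high and low groups do not overlap, LEP being higher and LPL lower in HBF and HIMF, and LEP in muscle stays under 0.5 FPKM while LPL in muscle lies between 21.6 and 136 FPKM.

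Both genes were therefore ordered by group without overlap between neighbours. LEP ran from HBF through LBF and HIMF down to LIMF, and LPL ran from LBF through HBF and LIMF down to HIMF. The neighbours within a tissue did not differ past the test, and the middle step, between a fat and a muscle group, was not tested by itself.

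The differences within a tissue were fitted with limma on log2(FPKM + 0.1) across all genes with a mean FPKM above 0.05, with Benjamini-Hochberg adjustment. In fat, LEP differed by 0.96 between HBF and LBF (SE 0.35, unadjusted p = 0.0290, limma adjusted p = 0.325). LPL differed by -0.95 (SE 0.25, unadjusted p = 0.00642, limma adjusted p = 0.251). The value of LEP depended on LBF replicate 2, the library lowest in LEP, without which it was 0.59, and it was 1.36 without LBF replicate 1.

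In the fat 0 of 16239 genes were called (0.0%), with 2206 genes (13.6%) at an unadjusted p under 0.05, 9.36% of all genes in the higher and 4.22% in the lower direction. The groups did not overlap for 20.4% of genes, 13.9% in the higher and 6.46% in the lower direction. With FPKM as deposited, 68.9% of those 2206 genes were higher in HBF, against 49.0% after median-of-ratios scaling, 47.2% after quantile normalization and 44.2% with every library scaled to the same total. LEP stayed higher at 0.86, 0.92 and 0.87 under these scalings, and LPL stayed lower at -1.05, -0.98 and -1.04.

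In muscle, LEP differed by 1.71 between HIMF and LIMF (SE 0.31, unadjusted p = 0.000625, limma adjusted p = 0.372), and it ranked 24 among the 14292 genes tested by p. The size of this difference followed the pseudocount, since the LIMF values lie below 0.1 FPKM. It was 0.42 with a pseudocount of 1 and 2.72 with a pseudocount of 0.01. LPL differed by -1.30 (SE 0.42, unadjusted p = 0.0146, limma adjusted p = 0.601), and by -0.88 without HIMF replicate 2.

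In the muscle 0 of 14292 genes were called (0.0%), with 1004 genes (7.02%) at an unadjusted p under 0.05, 4.51% of all genes in the higher and 2.52% in the lower direction. The groups did not overlap for 12.7% of genes, 7.93% in the higher and 4.74% in the lower direction. As deposited, 64.1% of those 1004 genes were higher in HIMF, against 54.9% after median-of-ratios scaling and 24.4% with every library scaled to the same total. That last scaling moved the median over all genes from 0.04 to -0.15, and LEP then differed by 2.01 and LPL by -1.50.

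An exact two-sided permutation test gave p = 0.10 for each gene in each tissue, the smallest p that 3 libraries against 3 allow. The study took up LEP from its muscle comparison and LPL from its fat comparison on these libraries, so the p-values there are not independent evidence, and nothing about a direction is to be read from that choice. Its list of candidate genes gives LPL a positive high-low change in both tissues, the reverse of the sign found here. The reason was not tested. Groups that do not overlap in either tissue and are higher in both HBF and HIMF were seen for 140 of 13767 genes (1.02%), LEP included. The same pattern in the lower direction was seen for 44 genes (0.32%), LPL included.

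**Figure D2:**
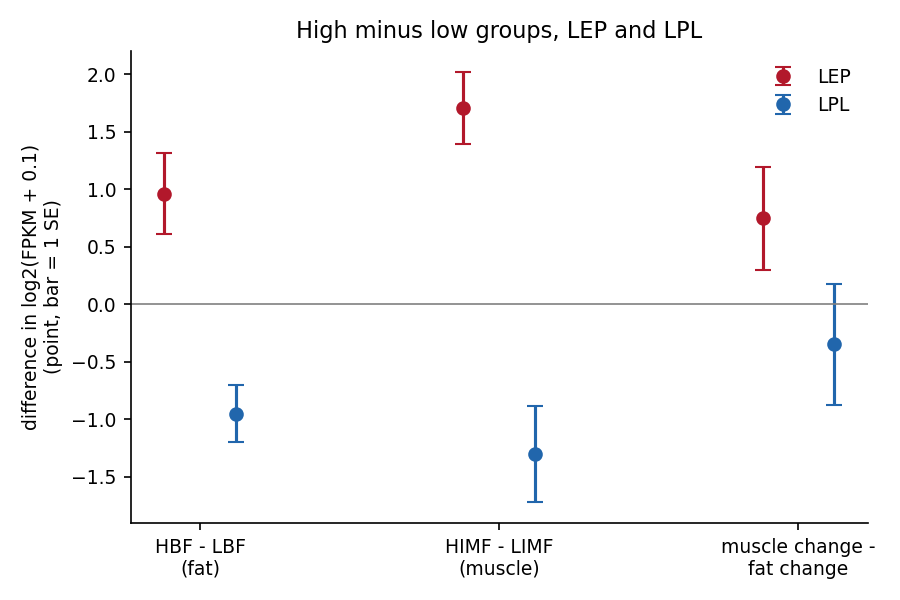
Differences in log2(FPKM + 0.1) from limma for LEP (red) and LPL (blue), for HBF minus LBF, HIMF minus LIMF and the muscle difference minus the fat difference; points are estimates and bars are 1 SE. LEP lies above 0 at 0.96 in fat and 1.71 in muscle, LPL lies below 0 at -0.95 and -1.30, and the bars of LPL cross 0 for the difference between tissues.

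A contrast fitted to all 12 libraries tested whether the high-low difference was itself unequal in fat and muscle. For LEP the muscle difference exceeded the fat difference by 0.75 (SE 0.45, limma adjusted p = 0.598, exact permutation p = 0.43). For LPL it was lower by -0.35 (SE 0.53, limma adjusted p = 0.845, exact permutation p = 0.72). For this contrast limma called 0 of 15965 genes at an adjusted p under 0.05 (0.0%), with 1628 (10.2%) at an unadjusted p under 0.05. The sign for LEP depended on the pseudocount, and the value was -0.53 with a pseudocount of 1 and 1.76 with a pseudocount of 0.01. With a library left out the value for LEP ran from 0.34 to 1.11. The sign for LPL rested on HIMF replicate 2, without which it was 0.0725.

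The ratio of LEP to LPL within a library does not depend on how libraries are scaled to each other. The LBF libraries gave ratios of 0.0877, 0.0347 and 0.0636, the HBF libraries 0.311, 0.185 and 0.180. The HBF ratios were all higher, by 1.91 on the log2 scale, a 3.77-fold difference (exact permutation p = 0.10, the smallest possible). The LIMF libraries gave 0.00117, 0.000626 and 0.000229, the HIMF libraries 0.0112, 0.0203 and 0.00519. These did not overlap either, with a difference of 4.26 on the log2 scale, 19.2-fold (exact permutation p = 0.10, the smallest possible). The log2 difference was 3.63 without LIMF replicate 3 and 4.81 without LIMF replicate 1. With 1 added to both values the muscle difference was 1.69, because LEP there is far below 1 FPKM.

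Across the 6 libraries of the fat, LEP and LPL had Pearson's r = -0.58 (exact permutation p = 0.258) and Spearman's rho = -0.83 (exact permutation p = 0.0583). Across the 6 libraries of the muscle r was -0.84 (exact permutation p = 0.0153, adjusted over the 2 tissues 0.0306) and rho was -0.89 (exact permutation p = 0.0333, adjusted 0.0583). Without the 2 libraries farthest from the median of LPL, r was -0.995 in fat and -0.80 in muscle. High and low libraries do not overlap for either gene in either tissue, so these values mix the gap between groups with any relation within them. Taken as deviations from the group means, r was 0.20 in fat (exact permutation p = 0.732) and -0.57 in muscle (exact permutation p = 0.236), so a relation within groups was not shown.

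The tissues differed far more for LEP than for LPL. The mean of LEP was 363 times as high in fat as in muscle, 1045 times from LBF to LIMF and 265 times from HBF to HIMF. Without LIMF replicate 1 the fold from LBF to LIMF was 1574. The mean of LPL was 10.5 times as high in fat as in muscle, 9.91 times from LBF to LIMF and 11.98 times from HBF to HIMF. The log2 difference of muscle from fat was -8.12 for LEP (SE 0.22, limma adjusted p = 9.3e-11) and -3.52 for LPL (SE 0.26, limma adjusted p = 1.54e-07). With the shared library code as a block, an alternative added after the data were seen, the limma adjusted p was 6.47e-08 for LEP and 5.38e-06 for LPL. Exact permutation gave p = 0.00216 for either gene, which is the lowest value attainable with 6 libraries against 6. In bulk tissue, fewer cells that express a gene and less RNA per cell cannot be told apart.

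Across all genes, 56.4% of 15965 were called between the tissues, 47.1% lower and 9.29% higher in muscle, and the median difference over all genes was -0.97. Median-of-ratios scaling brought that median to -0.15 and quantile normalization brought it to -0.06, while with every library scaled to the same total it was -1.11. An unadjusted p below 0.05 was reached by 12870 genes, with 19.7% of them higher in muscle as deposited. Among the genes that reached it after median-of-ratios scaling 46.1% were higher in muscle, and 48.5% after quantile normalization. Listed genes can change sign under median-of-ratios scaling, as CEBPB did from -0.89 to 0.15. Whether the listed genes called near -1 still pass the limit under that scaling is not reported here. LEP and LPL stayed lower in muscle under all 22 alternatives, between -8.91 and -6.03 for LEP and between -3.71 and -2.47 for LPL.

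The labelled tissues were checked by marker genes. All 10 matched adipocyte markers were called lower in muscle, and their summed level ran from 11074 to 13349 FPKM in LBF and from 9428 to 14327 in HBF. In muscle it ran from 96.6 to 129 (LIMF) and from 105 to 132 (HIMF). Of 9 matched muscle fibre markers 7 were called higher in muscle. Their sum in fat was 1.78 to 4.15 FPKM except in LBF replicate 3, where it was 235. All 9 had a difference below 0 between HBF and LBF, as LPL had, with a list median of -1.75, and none was called. ACTN2 and CASQ1 did not overlap, 2 of 9 beside 6.46% of all genes. Without that library the differences between HBF and LBF were 0.92 for LEP and -1.06 for LPL. ACTA1 was listed at 0 in 4 of the 6 muscle libraries and CKM in 2, while the other muscle libraries held ACTA1 at 8025 and 9637 and CKM at 7172 to 9288 FPKM, so a listed 0 may not be a true absence. Those values set much of the summed level in muscle, which ran from 8940 to 18451 FPKM in LIMF and from 20961 to 27524 in HIMF without overlap. Of the 9, CASQ1 was higher and ACTN2 and LMOD2 were lower in HIMF without overlap, at 0.38, -0.89 and -1.50, beside 7.93% and 4.74% of all genes (limma adjusted p = 0.829, 0.601 and 0.533). LYZ of the macrophage list and DLK1 of the fibroblast and preadipocyte list were also lower there without overlap, and no endothelial marker was. The part of these cell types in the differences of LEP and LPL in muscle was not tested. Neither LEP nor LPL was listed at 0 in any library.

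In muscle part of the adipocyte markers had higher values in HIMF, as LEP had, and none was called. ADIPOQ, the gene of adiponectin, was at 4.27, 6.46 and 1.31 FPKM in the LIMF libraries, and the HIMF libraries held 21.8, 8.36 and 11.2. PLIN1, which coats the lipid droplet of adipocytes, was at 0.975, 1.70 and 0.343 FPKM in the LIMF libraries, and the HIMF libraries held 4.90, 3.67 and 2.71. Together with THRSP these were the 3 of 10 markers whose HIMF libraries all lay above the LIMF libraries, beside 7.93% of all genes, and 4 of 10 had an unadjusted p under 0.05 in that direction, beside 4.51% of all genes. The means of ADIPOQ and PLIN1 were 3.44 and 3.74 times as high in HIMF, with limma adjusted p of 0.594 and 0.544. FABP4, the most abundant of the 10, was at 38.4 ± 12.2 FPKM in LIMF and 42.9 ± 2.97 in HIMF (SD, n = 3), and the sums of the list overlapped. LIPE and PLIN4 had lower means in HIMF, with differences of -0.88 and -0.20 (limma adjusted p = 0.707 and 0.894).

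Ratios of LEP and LPL to each of the 10 adipocyte markers within a library were added after the values were seen and are given as a description. The 10 ratios of a gene share its values, which did not overlap between groups, so they are not 10 separate results. No pseudocount was added, and LEP in LIMF lies near the lower limit of the measurement. In muscle LEP had a higher mean log2 ratio in HIMF to every marker, by 0.82 to 3.85 on the log2 scale with a median of 2.48. The groups did not overlap for 7 of 10 markers, among them FABP4, LIPE, PLIN4, CIDEC and PPARG, and overlapped for the 3 that were themselves higher in each HIMF library, PLIN1, ADIPOQ and THRSP. For LEP to PLIN1 in muscle, the LIMF libraries gave 0.102, 0.0281 and 0.0903 and the HIMF libraries 0.0924, 0.1198 and 0.128, a difference of 0.82. For LEP to FABP4 the difference was 2.75. LPL to each marker was lower in HIMF, by -3.44 to -0.42, without overlap for 3 of 10. Relative to the fat mean, LEP stood at 0.0691% in LIMF and 0.482% in HIMF, beside 0.166% and 0.570% for ADIPOQ and 0.158% and 0.589% for PLIN1. Other markers of the list stood at 0.788% and 0.881% (FABP4), 4.62% and 2.43% (LIPE) and 5.86% and 4.95% (PLIN4).

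In fat no adipocyte marker separated the groups, with 0 of 10 not overlapping beside 20.4% of all genes, and ADIPOQ was at 2425 ± 393 FPKM in LBF and 2412 ± 1439 in HBF (SD, n = 3). LEP to each of the 10 markers had a higher mean log2 ratio in HBF, by 0.05 to 1.79 with a median of 1.14, without overlap for CIDEC, PPARG and SCD only. LPL to each marker was lower in HBF, by -1.86 to -0.13 with a median of -0.78, without overlap for 5 of 10. For LPL to PLIN1, the LBF libraries gave 2.198, 1.49 and 1.34 and the HBF libraries 0.616, 0.674 and 1.04. Of the macrophage and endothelial markers in fat, 3 of 5 and 1 of 6 had an unadjusted p under 0.05 and were higher in HBF, beside 9.36% of all genes, and none was called. The macrophage markers did not all go that way, with differences from -1.70 to 1.26, and the endothelial markers ran from 0.23 to 0.85. The summed endothelial level was 178 to 370 FPKM in LBF and 311 to 548 in HBF, the summed macrophage level 35.6 to 103 and 90.3 to 95.9. Of 6 tested fibroblast and preadipocyte markers none had an unadjusted p under 0.05, with a list median of -0.75, and their sum ran from 2042 to 6322 FPKM in LBF and from 1408 to 3234 in HBF. The part of these cell types in the differences of LEP and LPL was not tested.

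**Figure D3:**
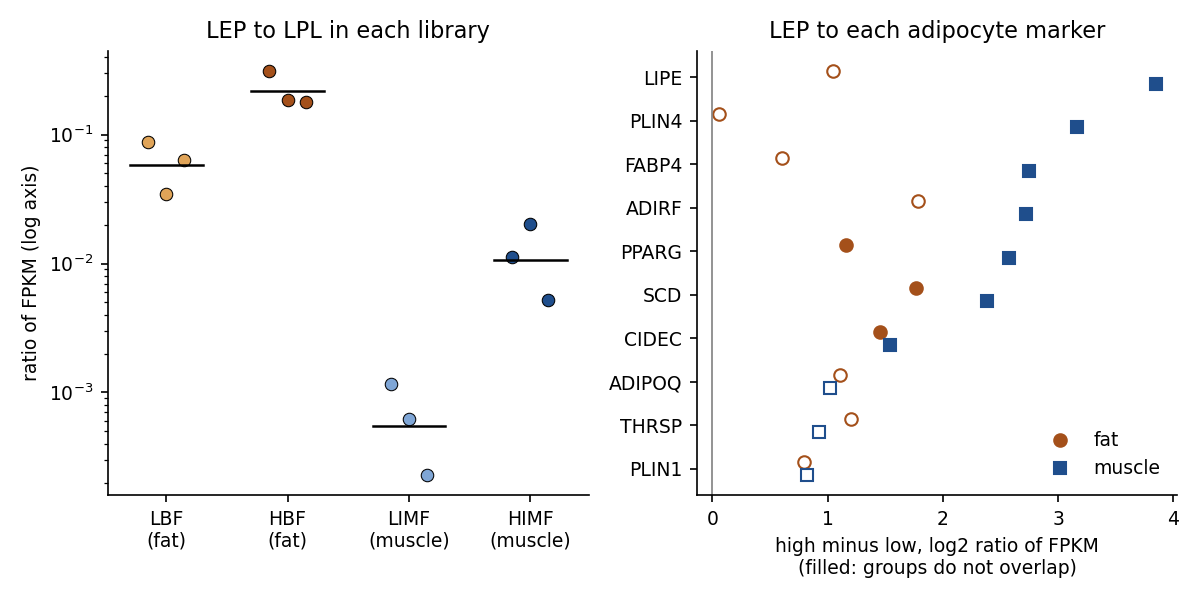
Left, ratio of FPKM of LEP to LPL in each library on a log axis, with 1 point per library and a line at the mean of the log values of a group. Right, high minus low group in the log2 ratio of FPKM of LEP to each of 10 adipocyte markers, in fat (circles) and muscle (squares), filled where the groups do not overlap. LEP to LPL runs from 0.0347 to 0.0877 in LBF against 0.180 to 0.311 in HBF, and all points on the right lie above 0, with 3 of 10 filled in fat and 7 of 10 in muscle.

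Of the 17 genes of leptin reception and signalling, none was called between high and low groups. In fat GRB2 and SOCS3 had an unadjusted p under 0.05 and were higher, SOCS3 by 1.44 with overlap (limma adjusted p = 0.363), with a list median of 0.09 that equalled the median over all genes of 0.09. GRB2, an adaptor of receptor signalling, was the only member of the list without overlap there, beside 20.4% of all genes (difference 0.54, limma adjusted p = 0.238). LEPR, the leptin receptor, was low everywhere. Its range was 0.0221 to 1.32 FPKM in LBF and 0.0108 to 0.289 in HBF, and in muscle 0.435 to 0.942 (LIMF) and 0.257 to 0.541 (HIMF). Its groups overlapped in both tissues, with differences of -1.32 in fat (limma adjusted p = 0.557) and -0.83 in muscle (limma adjusted p = 0.718).

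In muscle 5 of the 17 genes of the leptin list did not overlap, 3 higher and 2 lower, beside 7.93% and 4.74% of all genes, with a list median of -0.05 against 0.04 over all genes. IRS2, an adaptor shared with insulin signalling, was at 10.8, 6.90 and 7.61 FPKM in the LIMF libraries against 3.64, 1.998 and 2.09 in HIMF (difference -1.70, limma adjusted p = 0.362). Its relative IRS1 went the other way, from 8.13, 13.0 and 15.0 FPKM to 25.3, 41.0 and 20.1 (difference 1.23, limma adjusted p = 0.544). PIK3R1 and STAT5A were higher at 0.99 and 0.56, and PTPN1, a phosphatase that acts on JAK2, was lower at -0.53. The corresponding limma adjusted p-values were 0.743, 0.642 and 0.791.

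Between the tissues 6 of the 17 genes were called, 5 lower and 1 higher in muscle, beside 47.1% and 9.29% of all genes. SOCS3, an inhibitor of leptin signalling, was lower in muscle at -3.93, IRS2 at -2.35, LEPROT at -1.97, STAT5A at -1.54 and STAT3 at -1.26, and IRS1 was higher at 2.26. LEPR at 1.12 missed the limit (limma adjusted p = 0.0723).

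Of the 15 matched genes that mature, carry or control LPL, none was called between high and low groups, and in fat 0 of 14 tested did not overlap, beside 20.4% of all genes. GPIHBP1, which carries LPL to the capillary lumen, was at 83.4, 202 and 50.3 FPKM in LBF and 219, 207 and 141 in HBF (difference 0.97, SE 0.48, limma adjusted p = 0.418). ANGPTL4, which inactivates LPL, was at 32.8, 137 and 94.3 FPKM in LBF and 154, 107 and 99.4 in HBF (difference 0.65, SE 0.50, limma adjusted p = 0.595). LMF1, which LPL needs to fold, differed by 0.15 (limma adjusted p = 0.746). The activator APOC2 and the fatty acid receptor CD36 were not analysed here.

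In muscle 2 of 13 tested genes of that list, APOE and HSPG2, did not overlap and were higher in HIMF, beside 7.93% of all genes. APOE, a lipoprotein ligand, was at 0.846, 1.31 and 0.497 FPKM in the LIMF libraries against 2.49, 3.38 and 1.65 in HIMF (difference 1.43, limma adjusted p = 0.544). HSPG2, a heparan sulfate proteoglycan of the basement membrane, differed by 0.44 (limma adjusted p = 0.737). GPIHBP1 differed by 0.71 with overlap (limma adjusted p = 0.758). ANGPTL4 at 0.09 and LMF1 at 0.05 turned to -0.11 and -0.15 with every library scaled to the same total, and LMF1 was also below 0 with median-of-ratios scaling.

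Between the tissues 11 of 13 tested genes of LPL control were called, all lower in muscle, beside 47.1% of all genes, with a list median of -2.76 against -0.97 over all genes. APOE differed by -8.88, SORL1 by -5.52, ANGPTL4 by -4.17, GPIHBP1 by -4.14, SDC1 by -3.41, PCSK5 by -3.36, HSPG2 by -2.49, LMF2 by -2.35, PCSK6 by -1.90, FURIN by -1.43 and SEL1L by -1.08. LPL itself, at -3.52, lay within this range, between SDC1 and GPIHBP1.

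Among the lipases listed beside LPL, 3 of 6 passed the filter on low values. LIPG, endothelial lipase, was higher in HBF without overlap, as were 13.9% of all genes (difference 0.64, limma adjusted p = 0.338). LIPC, hepatic lipase, was higher in HIMF without overlap, as were 7.93% of all genes, at levels of 0.128 to 0.163 FPKM in LIMF and 0.277 to 0.497 in HIMF (difference 0.98, limma adjusted p = 0.594). LIPC and the lysosomal lipase LIPA, which belongs to another lipase family, were called lower in muscle, at -1.47 and -5.33, 2 of 3 beside 47.1% of all genes.

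**Figure D4:**
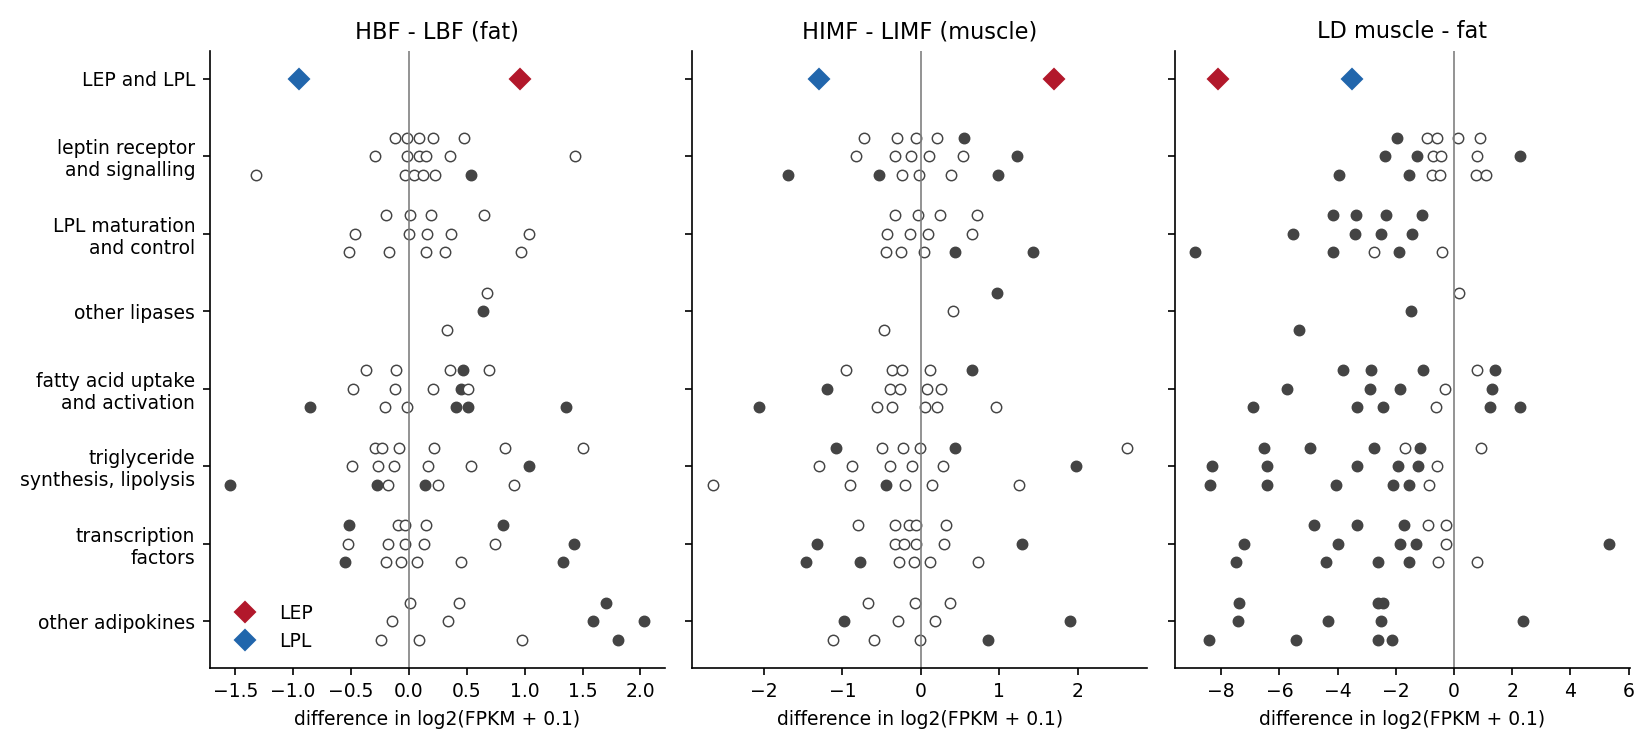
Differences in log2(FPKM + 0.1) for LEP (red), LPL (blue) and each tested gene of the lists (circles) in fat, in muscle and between the tissues, with a row per list and a small vertical offset only to keep points apart. Filled circles mark genes whose high and low groups do not overlap in the first and second panels and called genes in the last panel; LEP lies to the right and LPL to the left of 0 in the first and second panels, and both lie left of 0 in the last, at -8.12 and -3.52.

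Fatty acid uptake and activation genes gave no call within a tissue. In fat 6 of 16 did not overlap, 5 of them higher, beside 13.9% and 6.46% of all genes in the higher and lower direction. SLC27A3, a fatty acid transport protein, was at 7.59, 8.31 and 5.56 FPKM in LBF and 16.1, 18.8 and 20.1 in HBF (difference 1.36, limma adjusted p = 0.154). ACSL5, FABP5, CAV1 and SLC27A4 were also higher in each HBF library, at 0.51, 0.47, 0.45 and 0.41, and GOT2, the mitochondrial aspartate aminotransferase, was lower at -0.86 (limma adjusted p = 0.160). FABP4 differed by 0.35 with overlap and turned to -0.06 with quantile normalization.

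In muscle 3 of these 16 genes did not overlap, with ACSL4 higher at 0.66, ACSL1 lower at -1.20 and FABP3 lower at -2.06, beside 7.93% of all genes in the higher and 4.74% in the lower direction. The genes had limma adjusted p of 0.601, 0.591 and 0.601. FABP3, the fatty acid binding protein of heart and muscle, was at 329, 365 and 758 FPKM in the LIMF libraries against 100.4, 42.4 and 295 in HIMF. ACSL1, which activates fatty acids to acyl-CoA, was at 258, 275 and 202 FPKM against 74.5, 84.4 and 188. SLC27A1 at 0.11 and VLDLR at 0.08 overlapped. The list median was -0.25 against 0.04 over all genes. FABP4 differed by 0.21 with overlap (limma adjusted p = 0.890). Between the tissues 9 of 16 were called lower and 4 higher in muscle, beside 47.1% and 9.29% of all genes. Among them FABP4 differed by -6.90, SLC27A3 by -5.74, ACSL5 by -3.32, FABP5 by -2.88, CAV1 by -2.84, SLC27A6 by -2.44, SLC27A4 by -1.85 and ACSL4 by -1.06. Called higher in muscle were SLC27A1 at 1.22, ACSL1 at 1.32, the lipoprotein receptor VLDLR at 1.42 and GOT2 at 2.26.

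Of the 18 genes of triglyceride synthesis and lipolysis, 4 did not overlap in fat, a share near the 20.4% of all genes. DGAT2, which adds the last fatty acid of triglyceride, was at 214, 154 and 91.5 FPKM in LBF and 48.0, 29.7 and 85.2 in HBF (difference -1.54, limma adjusted p = 0.270). GPAM, which starts glycerolipid synthesis, was lower at -0.27, and PLIN5 and BSCL2 were higher at 1.03 and 0.14. In muscle PLIN1 and BSCL2 were higher at 1.98 and 0.43, and PLIN2 and ABHD5, the latter the activator of adipose triglyceride lipase, were lower at -1.08 and -0.45, which made 4 of 18 without overlap beside 12.7% of all genes. The limma adjusted p was 0.428 for PLIN5 and between 0.523 and 0.740 for the others apart from DGAT2.

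Between the tissues 14 of these 18 genes were called, all lower in muscle, beside 47.1% of all genes. PLIN1 differed by -8.38, CIDEC by -8.30, PCK1 by -6.53, DGAT2 by -6.43, PNPLA3 by -6.41, LIPE by -4.95, PLIN4 by -4.06, MGLL by -3.34, DGAT1 by -2.73, PNPLA2 by -2.08, ABHD5 by -1.92, BSCL2 by -1.56, LPIN1 by -1.25 and PLIN2 by -1.17.

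Transcription factors of adipocyte lipid genes gave no call within a tissue among 17. PPARG, the master factor of adipocytes, differed by -0.20 in fat and 0.32 in muscle, and CEBPA by 0.45 and 0.73, all with overlap and limma adjusted p of 0.776, 0.902, 0.484 and 0.758. In fat KLF2 at 1.42, PPARD at 1.33 and CEBPB at 0.81 were higher in each HBF library, and MLXIPL at -0.55 and EBF1 at -0.52 were lower. These were 3 and 2 of the 17 factors, beside 13.9% and 6.46% of all genes. In muscle SREBF1, which drives fatty acid synthesis genes, was higher at 1.30 (limma adjusted p = 0.544). PPARA, a factor of fatty acid oxidation genes, was lower at -1.47 (limma adjusted p = 0.402), as were PPARGC1A at -1.32 and KLF15 at -0.78. Without overlap in muscle were thus 1 factor higher and 3 lower, beside 7.93% and 4.74% of all genes.

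Between the tissues 12 of the 17 factors were called, beside 56.4% of all genes. CEBPA differed by -7.50, PPARG by -7.20, MLXIPL by -4.81, EBF1 by -4.41, KLF4 by -3.97, KLF2 by -3.35, EBF2 by -2.61, CEBPD by -1.85, SREBF1 by -1.72, NR1H3 by -1.56 and PPARD by -1.29, and PPARGC1A was higher in muscle at 5.33.

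Other adipokines included 4 of 11 tested genes without overlap in fat, all higher in HBF, beside 13.9% of all genes, with a list median of 0.44 against 0.09 over all genes. Among them INHBB, a subunit of activin, differed by 2.03, APLN, apelin, by 1.81 and CCL2, a chemokine for monocytes, by 1.59, with limma adjusted p between 0.222 and 0.243. In muscle ADIPOQ at 1.90 and SFRP5 at 0.86 were higher in each HIMF library and APLN at -0.98 was lower, beside 7.93% and 4.74% of all genes, with a list median of -0.07.

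Between the tissues all 11 were called, beside 56.4% of all genes in either direction. Among them ADIPOQ differed by -8.43, SFRP5 by -7.41, RBP4 by -7.37, CCL2 by -5.41, IL6 by -4.34, CFD by -2.60, INHBB by -2.59, RARRES2 by -2.52 and APLN by -2.13, and NAMPT was higher in muscle at 2.37. Of these only ADIPOQ differed more than LEP, which was at -8.12.

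The genes whose pattern was most like that of LEP and LPL were found by Pearson's r of log2(FPKM + 0.1) over the 12 libraries among the other 11081 genes with a mean FPKM above 1. The 12 values share library depth and tissue, and r is given as a description. With each tissue centred on its own mean, UBE2V2 was most like LEP (r = 0.95), followed by CAPN1, ATG4A, FAM217B and KIF3C (r = 0.91, 0.91, 0.91 and 0.89). Their differences between high and low groups were smaller than those of LEP, from 0.12 for UBE2V2 to 0.53 for KIF3C in fat and from 0.35 for UBE2V2 to 1.32 for KIF3C in muscle. Without centring, SDR16C5, KLB, MOSPD3, SFRP5 and APOE were most like LEP, with r between 0.993 and 0.995, which mostly follows the gap between tissues. For LPL the centred order was NOPCHAP1 (r = 0.95), HOMER2 (r = 0.91), MRPL9, ALDH6A1 and TSPYL4 (r = 0.90 each). Of these ALDH6A1, an enzyme of valine breakdown, differed most, by -1.12 in fat and -0.79 in muscle. The order without centring was TSPYL4, ADISSP, METTL27, RNF114 and PTCH1 (r between 0.979 and 0.983).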

How the data were processed

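RNA-Seq of 12 libraries of Dingyuan pigs was used, 6 of back subcutaneous fat and 6 of LD muscle. According to the methods of the study and the processing notes of the submitters, the authors cleaned the reads, mapped them with HISAT2 onto Sscrofa11.1, and took FPKM per Ensembl gene from Cufflinks 2.2.1. These FPKM values were used as deposited. The read counts that the authors tested with DESeq2 1.25.9 were not used here. FPKM do not show how many reads lie behind a value, so no counting interval is given.

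Identifiers on 2 rows, 7 in all, were summed. Symbols came from a table of gene names and the gene tables of the study, which named 15051 of 31903 identifiers and matched 131 of 148 listed symbols. Tests used genes whose mean FPKM exceeded 0.05 in the fitted libraries, on log2(FPKM + 0.1) with limma 3.58.1 in R 4.3.3 (lmFit, eBayes with trend), without covariates. This scale understates the change of genes at a low FPKM. Single values were tested by exact two-sided permutation with numpy 2.4.6 and scipy 1.17.1. The limma test was tested on simulated data, where it recovered the simulated fold changes and called part of the changed genes. LEP and LPL, the gene lists and the tests were chosen with earlier results of these data known. Named with values are listed genes that were called in any comparison or whose high and low groups did not overlap, and 10 fixed receptor, partner or regulator genes. No pair of replicate libraries shared a value over the expressed genes. Fat and muscle libraries share code numbers, the sources used here do not say that these mark the same pig, and no pig term was fitted in the main design. The listed genes not matched, among them APOC2, CD36, CIDEA and TNF, were not analysed here, and values of some listed genes are not reported here. Alternatives were other pseudocounts, filters and scalings, eBayes without trend, a replicate block, a fit over all libraries, each library left out in turn, and, added after the values were seen, ratios within a library, folds of the means with a library left out and the shared library code as a block.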

Additional observations from a re-analysis of the deposited data

How the results depend on the processing

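For LEP and LPL, the difference between high and low groups within a tissue, and that of muscle from fat, kept its direction and its side of the limits under every alternative that gave a value. LEP in muscle has no value with a mean FPKM above 1, since it fails that filter. Leaving out each library in turn, LEP ran from 0.59 to 1.36 in fat and from 1.58 to 1.88 in muscle, and LPL from -1.07 to -0.73 and from -1.69 to -0.88, with limma adjusted p between 0.0970 and 0.999 over all alternatives in muscle. The log2 ratio of LEP to LPL ran from 1.55 to 2.22 in fat and from 3.63 to 4.81 in muscle.

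The difference between tissues of the high-low change reversed to -0.53 for LEP with a pseudocount of 1. For LPL it ran from -0.74 to 0.0725 with a library left out, the latter without HIMF replicate 2. As deviations from the group means, r of LEP with LPL was 0.20 in fat and -0.57 in muscle. Genes called in fat numbered 0 and ran from 0 to 2 with a library left out, the 2 without LBF replicate 1. In muscle they numbered 0, ran from 0 to 5, the 5 without LIMF replicate 1, and were 1 with all 12 libraries in one fit. Between tissues 9009 were called, 5864 with a pseudocount of 1, where low genes have smaller differences by construction, and 8833 to 9008 with a library left out. For the contrast of the tissues the count of 0 became 1 with a pseudocount of 1 or 0.01, without a filter or with every library scaled to the same total, and 2 with eBayes without trend. It ran from 0 to 118 with a library left out, the 118 without LIMF replicate 3, and the cause was not tested.

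Libraries of LBF and HBF with the same number had correlations of their deviations from the group means of 0.06, 0.14 and 0.03. Those of LIMF and HIMF had -0.06, 0.01 and -0.03. Libraries with different numbers ran from -0.17 to 0.12 in fat and from -0.12 to 0.15 in muscle. A pairing by number was not shown, and so few libraries cannot exclude it. With the replicate number as a block (replicate block), LEP had limma adjusted p of 0.278 in fat and 0.541 in muscle, LPL 0.276 and 0.541, and 0, 0, 9000 and 0 genes were called in fat, in muscle, between tissues and in the contrast. With the shared library code as a block, added after the data were seen, 8990 genes were called between tissues and 0 in the contrast, where limma adjusted p was 0.547 for LEP and 0.845 for LPL. Correlations of deviations between libraries of the same code were 0.13, 0.17 and 0.05 for LBF with LIMF and -0.06, -0.07 and -0.05 for HBF with HIMF. Libraries of different codes ran from -0.13 to 0.008 for LBF with LIMF, below each pair of the same code. For HBF with HIMF they ran from -0.06 to 0.12.

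With 3 libraries per group, limits are an exact permutation p of at least 0.10 for a single gene, no read counts behind the values and LEP values in LIMF near 0.05 FPKM.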
